A study of Mus musculus with 19 samples.

Results

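Toll-like receptors are the membrane sensors through which leukocytes recognize microbial products, and Cd14 is the co-receptor that hands lipopolysaccharide to them. The genes described here are Tlr1 to Tlr9 and Cd14, taken as every non-control probe that carries one of these gene names on the array, which gave 12 probes of 10 genes among 41174 probes. Each receptor has an ectodomain of leucine-rich repeats and a cytoplasmic TIR domain, and most of them signal through the adaptor Myd88 to NF-kB and to inflammatory cytokines. Tlr2 works in pairs with Tlr1 or Tlr6 on lipopeptides and on components of the fungal cell wall, Tlr4 works with Ly96 and Cd14 on lipopolysaccharide and has been linked to fungal mannan, and Tlr5 binds flagellin. Tlr3, Tlr7, Tlr8 and Tlr9 lie in endosomes and sense nucleic acids. In blood, Tlr2, Tlr4 and Cd14 are known from monocytes and neutrophils, and Tlr7 and Tlr9 from B cells and plasmacytoid dendritic cells.

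The samples were leukocyte RNA from the blood of male B6 (C57BL/6J) and DBA/2 mice that had received CAWS, a water-soluble mannoprotein fraction of Candida albicans that induces vasculitis, by intraperitoneal injection on consecutive days. The time right after the last injection is 0 w, so that the 0 w groups had also received CAWS and no untreated group enters any comparison. Blood was taken from both strains at 0 w and 2 w, at 4 w, and then at 8 w and 9 w. Each group held 2 samples, apart from the single samples of B6 mice for 2 w and for 9 w, which makes 18 samples in 10 groups on 19 single-colour arrays. The mice were aged 5 to 14 weeks, the later groups hold only animals that had survived, and each sample is a mixture of all blood leukocytes. In such a mixture, fewer cells of a type and less RNA per cell cannot be told apart.

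Signals are given here as scaled signals, which are the deposited processed signals after the 75th percentile of every array was brought to the same value, 374.6. A log2 change is a difference of log2 scaled signals. B6 mice at 2 w and at 9 w have no spread of their own, so that calls at those weeks assume that the lone sample varies like the other groups. A change was called when its adjusted p was under 0.05 in a limma fit to all 22937 probes that were well above background in at least 2 samples, and the words rose and fell are used only for called changes. Well above background is the call of the scanner software for a spot that stands clear of the local background.

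Of the 10 genes, 8 passed the filter. The probes of Tlr2, Tlr7 and Tlr9 were well above background on all 19 arrays, those of Tlr6 and Cd14 on 18, that of Tlr4 on 12, and those of Tlr1 and Tlr5 on 9 each. The 2 Tlr3 probes and the Tlr8 probe never stood well above background, with scaled signals between 1.38 and 7.07, so that no level of these nucleic acid sensors can be given. A second Tlr4 probe, whose position lies 86.8 kb further along the chromosome than the first, was likewise never well above background (1.97 to 6.28) and says nothing about the direction of Tlr4. All values of Tlr4 below are those of the first probe, which was printed in 10 spots on each array, as was the Tlr2 probe. On mm8, the build named in the file headers, the Tlr2 probe lies at chr3:83922349-83922408, the first Tlr4 probe at chr4:66329051-66329109, the Tlr1 probe at chr5:65204011-65204070 and the Tlr6 probe at chr5:65232261-65232320. Tlr1 and Tlr6 are thus close neighbours, with 28.2 kb between their probes, and Tlr7 and Tlr8 are neighbours on the X chromosome, with 62.5 kb between theirs. The array annotation used here does not say in which exon or UTR a probe lies.

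The reference promoters of 4 receptors are shown because these receptors stand for the patterns described below: Tlr2 and Tlr6 rose in both strains, Tlr9 was measured on every array without a called change, and Tlr1 was measured in B6 mice alone. RefSeq (GRCm38.p6) promoters were looked up for Tlr1 to Tlr9 and not for Cd14, and 7 of these receptors had one. Each sequence runs 5′ to 3′ on the strand of the gene, from 250 bases before to 50 bases after the annotated start. Capitals mark matches, on either strand, to GAGGAA (the core bound by PU.1, a myeloid factor), to TTNNGNAA (C/EBP-like) or to GGGNN followed directly by TTNCC (NF-kB-like). The intervals are chr3:83841559-83841858 on the minus strand for Tlr2, chr5:64959117-64959416 on the minus strand for Tlr6, chr5:64933509-64933808 on the minus strand for Tlr1 and chr9:106222348-106222647 on the plus strand for Tlr9.
Tlr2: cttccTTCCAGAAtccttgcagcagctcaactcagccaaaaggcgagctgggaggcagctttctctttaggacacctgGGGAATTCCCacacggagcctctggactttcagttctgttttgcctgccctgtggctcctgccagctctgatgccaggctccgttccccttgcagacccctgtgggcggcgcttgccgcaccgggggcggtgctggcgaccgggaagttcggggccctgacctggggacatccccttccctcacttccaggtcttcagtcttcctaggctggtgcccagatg
Tlr6: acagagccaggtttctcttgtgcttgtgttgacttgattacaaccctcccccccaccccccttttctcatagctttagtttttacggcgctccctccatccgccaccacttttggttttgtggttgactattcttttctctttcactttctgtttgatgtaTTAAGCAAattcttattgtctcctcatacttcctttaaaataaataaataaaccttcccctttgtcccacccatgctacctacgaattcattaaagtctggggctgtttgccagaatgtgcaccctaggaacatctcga
Tlr1: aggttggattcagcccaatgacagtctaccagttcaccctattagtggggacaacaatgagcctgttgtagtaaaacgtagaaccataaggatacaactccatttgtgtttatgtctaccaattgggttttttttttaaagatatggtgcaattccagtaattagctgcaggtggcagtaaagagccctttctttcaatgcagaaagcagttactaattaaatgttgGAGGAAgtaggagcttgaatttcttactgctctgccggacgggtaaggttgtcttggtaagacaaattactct
Tlr9: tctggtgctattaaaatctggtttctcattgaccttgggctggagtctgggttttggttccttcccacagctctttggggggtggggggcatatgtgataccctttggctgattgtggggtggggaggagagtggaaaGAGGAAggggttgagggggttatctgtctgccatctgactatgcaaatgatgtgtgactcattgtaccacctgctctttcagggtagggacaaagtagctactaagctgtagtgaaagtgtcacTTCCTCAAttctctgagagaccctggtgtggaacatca
The Tlr2 promoter held 1 NF-kB-like match, which began 172 bases before the start, and 1 C/EBP-like match. For Tlr6 and Tlr1 the table holds a second start each, whose promoters had no match to any of the 3 patterns and are not shown. The Tlr6 promoter shown held 1 C/EBP-like match, the Tlr1 promoter shown 1 PU.1 core, and the Tlr9 promoter 2 PU.1 cores, of which 1 overlapped its C/EBP-like match. Over all 32851 promoters of this length, 4.79% held the NF-kB-like pattern, 28.3% the PU.1 core and 40.7% the C/EBP-like pattern. These are matches of letters in the B6 reference, and the DBA/2 sequence was not used here.

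The samples of a group were close to each other. The SD over probes of the log2 difference between paired samples was 0.203 to 0.263 in B6 mice, against 0.238 between 2 arrays of the same B6 RNA, and 0.316 to 0.413 in DBA/2 mice. Since the B6 samples of a week differed about as little as arrays of 1 RNA, the p-values may measure technical spread. In B6 mice, all 9 hepatocyte markers were well above background in both samples at 0 w and 8 or 9 of them at 8 w, with summed scaled signals of 16840 to 17320 and 8750 to 9229, against 189.9 to 556.3 in the other 14 samples. The 10 neutrophil markers summed to 21500 to 21590 in B6 mice at 0 w and 161500 to 162300 at 8 w, and to 40020 to 40450 in DBA/2 mice at 0 w and 264400 to 294500 at 8 w. All 10 rose in the mean of 4 w and 8 w in both strains. Of 8 monocyte markers, 7 rose in DBA/2 mice, where their median log2 change was 1.60, and 3 rose and 2 fell in B6 mice (median -0.09). The B6 mean joins unlike weeks, since 5 monocyte markers fell and 1 rose at 4 w (median -0.51) and 5 rose at 8 w (median 0.48). Of 5 platelet markers 4 rose in DBA/2 mice and 3 in B6 mice, and of 4 erythroid markers 1 rose in DBA/2 mice and 2 fell in B6 mice, where all 4 fell at 8 w. Of 8 B cell markers, 6 fell in DBA/2 mice and none was called in B6 mice, and of 3 markers of plasmacytoid dendritic cells 2 fell in DBA/2 mice and 1 in B6 mice. The plot of marker lists shows these sums by sample.

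**Figure D1:**
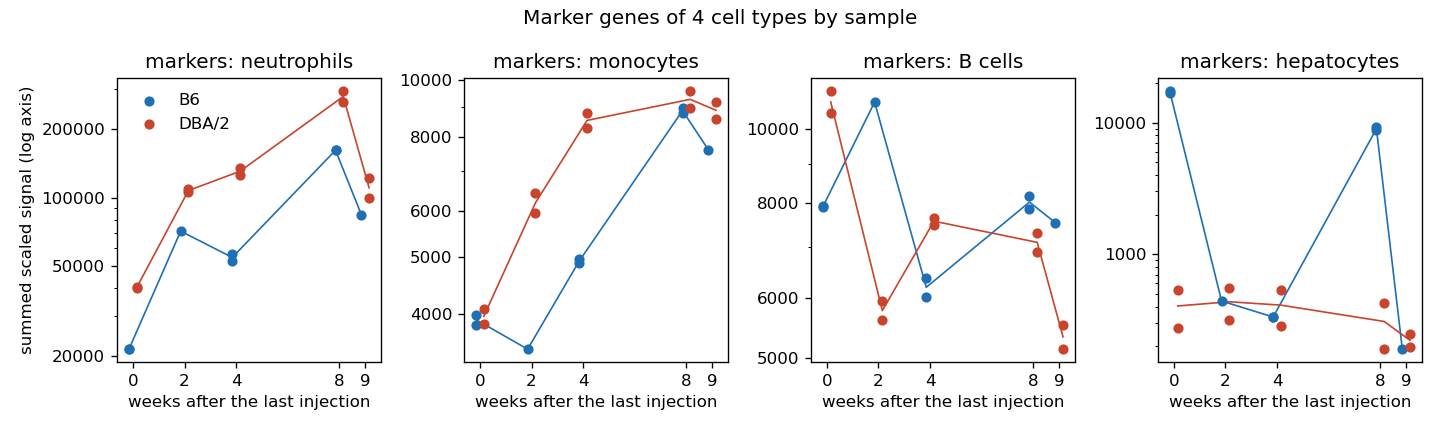
Summed scaled signal (log axis) of the marker genes of neutrophils, monocytes, B cells and hepatocytes in each sample against weeks after the last injection, with points for samples and lines through the group means. The hepatocyte sum is at 8750 or above in the B6 samples at 0 w and 8 w and at 556.3 or below in the other 14 samples, while the neutrophil sum is higher at every later week than at 0 w in both strains.

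Tlr2, the lipopeptide receptor, rose in both strains, and further in DBA/2 mice by 4 w. In DBA/2 mice its scaled signals were 70.1 and 66.8 at 0 w, 96.9 and 92.3 at 2 w, 198.5 and 198.0 at 4 w, 209 and 214 at 8 w, and 238 and 238 at 9 w. In B6 mice they were 58.9 and 57.8 at 0 w, 82.0 in the single sample at 2 w, 75.1 and 74.6 at 4 w, 164 and 164 at 8 w, and 146 in the single sample at 9 w. Every later sample lay above both 0 w samples of its strain, and both DBA/2 samples at 4 w lay above every B6 sample of any week. The log2 change from 0 w at 4 w was 1.53 ± 0.07 (SE; adjusted p = 1.79e-06, limma) in DBA/2 mice and 0.36 ± 0.07 (adjusted p = 0.00607) in B6 mice. At 8 w the changes were 1.63 ± 0.07 (adjusted p = 2.83e-07) and 1.49 ± 0.07 (adjusted p = 8.27e-07).

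Tlr6, a partner of Tlr2, was higher in DBA/2 mice from the start and rose in both strains. Its scaled signals in DBA/2 mice were 50.4 and 58.2 at 0 w, 83.4 and 69.5 at 2 w, 105 and 110 at 4 w, 162 and 154 at 8 w, and 138 and 134 at 9 w. The B6 values were 27.0 and 20.7 at 0 w, 38.0 at 2 w, 29.8 and 31.8 at 4 w, 104 and 105 at 8 w, and 68.3 at 9 w. Both 0 w samples of DBA/2 mice lay above all B6 samples at 0 w, 2 w and 4 w. The change at 4 w was called in DBA/2 mice (0.99 ± 0.14 SE, adjusted p = 0.0013, limma) and not in B6 mice (0.38 ± 0.14, adjusted p = 0.0935). At 8 w it was 1.55 ± 0.14 in DBA/2 mice and 2.15 ± 0.14 in B6 mice, with adjusted p values of 4.4e-05 and 7.73e-06.

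Tlr1, the other partner of Tlr2, was measured in B6 mice alone. Its scaled signals in the 8 B6 samples ran from 64.3 to 106, with a median of 74.5, and all 9 B6 arrays were well above background. In the 10 DBA/2 samples they ran from 1.87 to 7.14, with a median of 3.28, and none of the 10 arrays was well above background. The strains did not overlap at any week. Tlr1 was at least 5.36-fold higher in B6 mice at 0 w, at least 5.31-fold at 4 w and at least 12.6-fold at 8 w. The probe passed the filter through the B6 samples alone, so it had to differ between the strains, and these bounds are a description with no test. These bounds set the B6 mean against the lowest signal that was well above background on each DBA/2 array, or against the probe's own signal where that was higher. No week differed from 0 w by a called amount in B6 mice, where the log2 change of the mean of 4 w and 8 w was 0.27 ± 0.40 (adjusted p = 0.737). There is 1 probe, so less Tlr1 transcript in DBA/2 mice and weaker binding of a DBA/2 sequence to it cannot be told apart.

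**Figure D2:**
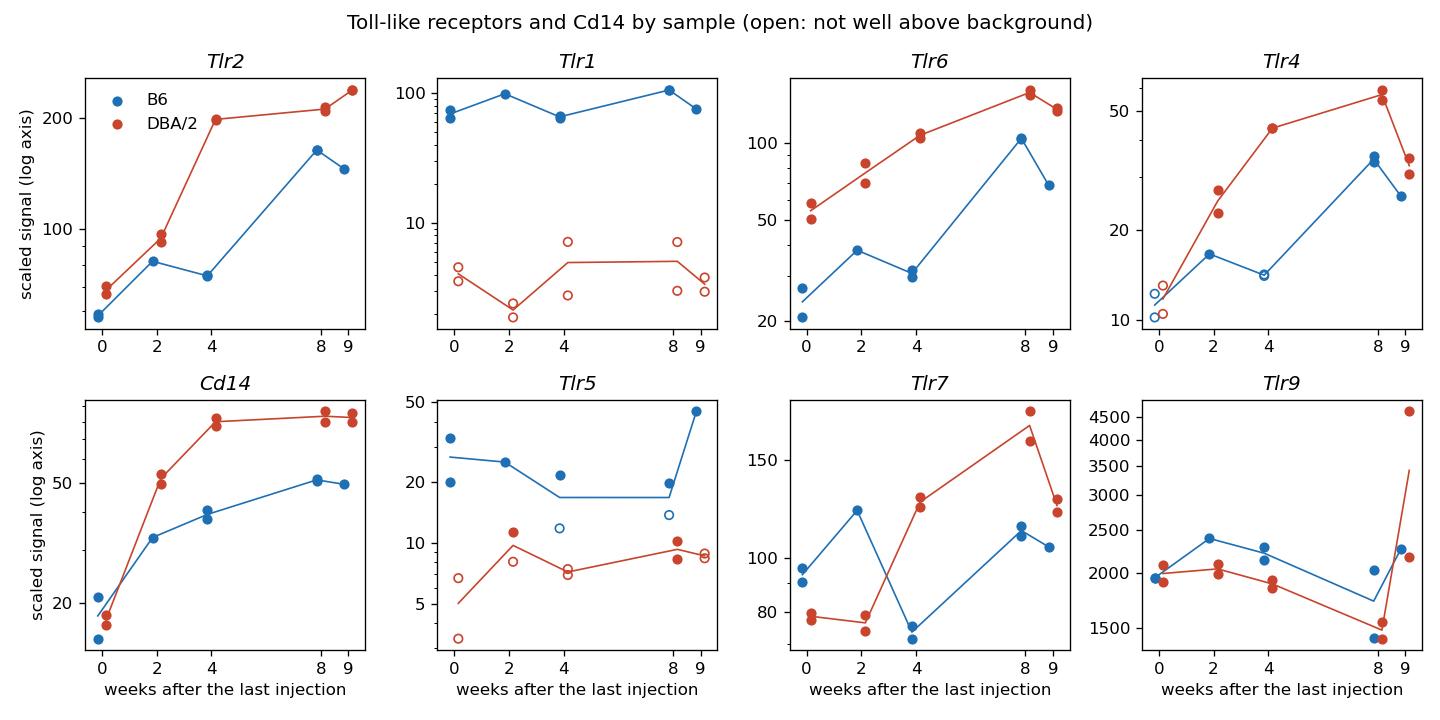
Scaled signal (log axis) of the 8 genes that passed the filter, in each sample against weeks after the last injection, for B6 and DBA/2 mice. Points are filled where the probe was well above background and open where it was not, and lines run through the group means. Tlr1 lies at 64.3 or above in all B6 samples and at 7.14 or below in all DBA/2 samples, whereas Tlr2, Tlr6, Tlr4 and Cd14 are higher at 8 w than at 0 w in both strains.

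Tlr4, the lipopolysaccharide receptor, came above background with time in both strains. In DBA/2 mice its scaled signals were 13 and 10.5 at 0 w, where no array was well above background, and 27.2 and 22.9 at 2 w, 43.9 and 43.9 at 4 w, 59.0 and 54.7 at 8 w, and 34.9 and 30.8 at 9 w. In B6 mice they were 12.2 and 10.2 at 0 w and 14.1 and 14.2 at 4 w, not well above background at either week, and 16.6 at 2 w, 35.4 and 33.7 at 8 w, and 25.9 at 9 w. In both strains the samples at 8 w lay above those of every other week. Because 0 w gives only an upper limit, the rises are bounds: for DBA/2 mice they came to at least 1.80-fold by 2 w (adjusted p = 0.000941, limma), 3.17-fold by 4 w (adjusted p = 2.14e-05), 4.10-fold by 8 w (adjusted p = 3.73e-06) and 2.37-fold by 9 w (adjusted p = 7.31e-05). The B6 bounds were at least 2.33-fold for 8 w (adjusted p = 4.34e-05) and 1.75-fold for 9 w (adjusted p = 0.00187). The difference at 2 w in B6 mice was not called (adjusted p = 0.0528).

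Cd14 rose in every later week in DBA/2 mice and at 4 w and 8 w in B6 mice, with a larger mean change in DBA/2 mice. The single B6 samples of 2 w and of 9 w likewise lay above both 0 w samples. Its scaled signals in DBA/2 mice were 16.9 and 18.3 at 0 w, 49.9 and 53.7 at 2 w, 82.3 and 77.7 at 4 w, 80.1 and 86.8 at 8 w, and 80.0 and 85.3 at 9 w. The B6 values were 21.1 and 15.3 at 0 w, 33.0 at 2 w, 38.0 and 40.8 at 4 w, 50.8 and 51.9 at 8 w, and 49.6 at 9 w. The strains overlapped at 0 w, and from 4 w on every DBA/2 sample lay above every B6 sample of any week. At 2 w the log2 change was 1.56 ± 0.14 (SE; adjusted p = 0.000171, limma) in DBA/2 mice and 0.88 ± 0.17 (adjusted p = 0.00696) for the lone B6 sample. At 8 w it was 2.24 ± 0.14 (adjusted p = 4.13e-06) and 1.52 ± 0.14 (adjusted p = 6.24e-05).

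**Figure D3:**
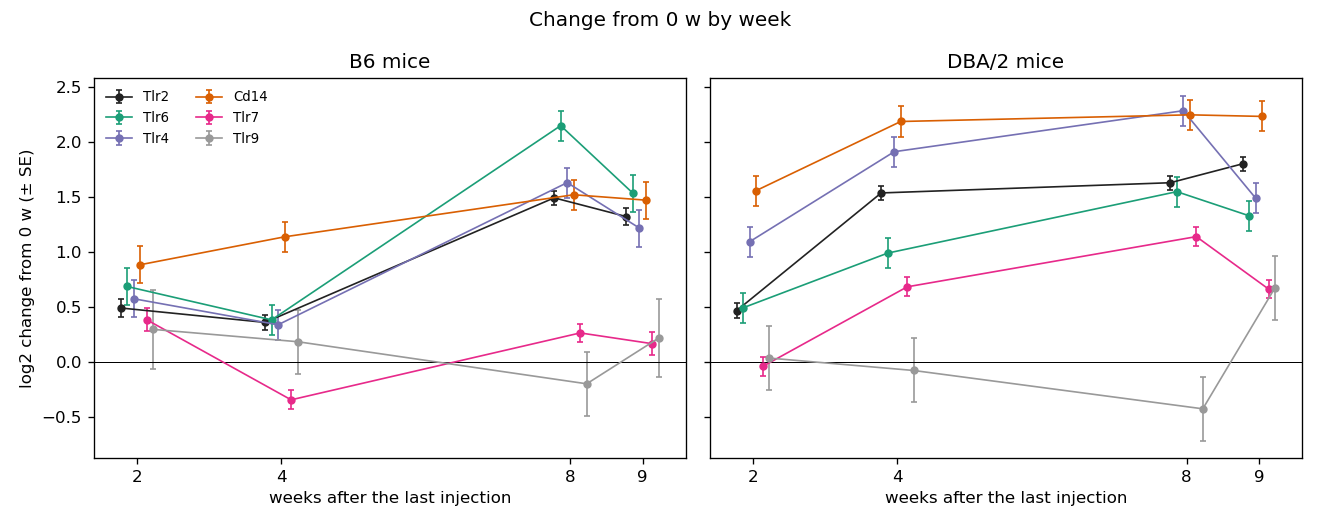
Log2 change from 0 w (± SE) at each later week for Tlr2, Tlr6, Tlr4, Cd14, Tlr7 and Tlr9, in B6 mice (left) and DBA/2 mice (right). At 4 w the changes of Tlr2, Tlr6 and Tlr4 are between 0.34 and 0.38 in B6 mice and between 0.99 and 1.91 in DBA/2 mice. Neither the Tlr4 signals of 0 w nor those of B6 mice for 4 w were well above background.

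Tlr7, the receptor for single-stranded RNA, moved differently in the 2 strains. In DBA/2 mice its scaled signals were 79.6 and 77.3 at 0 w, 73.9 and 78.8 at 2 w, 128 and 124 at 4 w, 184 and 162 at 8 w, and 128 and 121 at 9 w. In B6 mice they were 95.9 and 90.6 at 0 w, 122 at 2 w, 75.5 and 71.5 at 4 w, 114 and 110 at 8 w, and 105 at 9 w. In DBA/2 mice it rose at 4 w (0.68 ± 0.09 SE, adjusted p = 0.000722, limma), 8 w (1.14 ± 0.09, adjusted p = 1.59e-05) and 9 w (0.66 ± 0.09, adjusted p = 0.000466). The B6 samples showed another course. Tlr7 fell at 4 w, with a log2 change of -0.34 ± 0.09 (SE; adjusted p = 0.0246, limma), the lone sample at 2 w gave 0.38 ± 0.10 (adjusted p = 0.0401), and the 8 w value of 0.26 ± 0.09 was not called (adjusted p = 0.0554).

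Tlr9, the receptor for unmethylated DNA, gave the highest signals of the probes examined, which cannot be compared as levels between probes, and no called change in any week of this fit. With slide as a block the DBA/2 mean change of -0.25 was called (adjusted p = 0.0279). In DBA/2 mice the scaled signals were 1909 and 2082 at 0 w, 1995 and 2093 at 2 w, 1929 and 1851 at 4 w, 1421 and 1551 at 8 w, and 2178 and 4651 at 9 w. The B6 values were 1948 and 1954 at 0 w, 2395 at 2 w, 2140 and 2296 at 4 w, 1424 and 2032 at 8 w, and 2271 at 9 w. The second DBA/2 sample at 9 w stood far above its partner, and the log2 change at 9 w was 0.68 ± 0.29 (SE; adjusted p = 0.118, limma). When 4 w and 8 w were averaged and set against 0 w, the 95% intervals of the log2 change were -0.82 to 0.31 in DBA/2 mice and -0.57 to 0.56 in B6 mice.

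Tlr5, the flagellin receptor, lay near the background and varied between samples. In B6 mice its scaled signals were 33.2 and 20.1 at 0 w, 25.2 at 2 w, 21.8 and 11.8 at 4 w, 19.9 and 13.8 at 8 w, and 45.1 at 9 w, and in 6 of the 8 samples it was well above background. In the 10 DBA/2 samples they ran from 3.35 to 11.4, and 3 were well above background. Every B6 sample lay above every DBA/2 sample, but the margin was small. The lowest B6 signal was 11.8 at 4 w, not well above background, and the highest DBA/2 signal was 11.4 at 2 w. At 0 w Tlr5 was at least 2.01-fold higher in B6 mice, where 2 of 3 arrays were well above background (adjusted p = 0.00128, limma). No change from 0 w was called in either strain. With 1 probe, less Tlr5 transcript in DBA/2 mice and weaker binding of a DBA/2 sequence to it cannot be told apart.

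Against 0 w, the mean of 4 w and 8 w was higher for 5 of the 8 genes tested in DBA/2 mice and for 4 of 8 in B6 mice. It was lower for none. Tlr1 is among the 8 although its DBA/2 signals were never well above background. Over all probes tested, 9.8% were called higher and 13% lower in DBA/2 mice, and 7.27% higher and 7.71% lower in B6 mice. The median log2 change of all probes was -0.14 in DBA/2 mice and -0.08 in B6 mice. In DBA/2 mice the called genes were Cd14 (2.21 ± 0.12 SE), Tlr4 (2.09 ± 0.12), Tlr2 (1.58 ± 0.06), Tlr6 (1.27 ± 0.12) and Tlr7 (0.91 ± 0.07), with adjusted p values from 1.74e-07 to 6.94e-05. The Tlr4 changes in both strains are fitted values from a 0 w signal that was not well above background, so their size is not measured. In B6 mice they were Cd14 (1.33 ± 0.12), Tlr6 (1.26 ± 0.12), Tlr4 (0.98 ± 0.12) and Tlr2 (0.92 ± 0.06), with adjusted p values from 8.43e-06 to 0.000542. Another background correction (normexp, with an offset of 50 added to every signal) left 2 calls in DBA/2 mice, Tlr2 and Tlr6, and none in B6 mice. The calls over all probes then fell to 584 and 179. The part of the offset in these losses was not tested.

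By week, DBA/2 mice had 4 genes called higher at 2 w and 5 at each of 4 w, 8 w and 9 w, against 7.93%, 7.59%, 10% and 13.4% of all probes. B6 mice had 2 genes called higher at 4 w (Tlr2 and Cd14) and 4 at 8 w, against 6% and 10.9%. The lone B6 samples gave 4 at 2 w (Tlr2, Tlr6, Tlr7 and Cd14) and 4 at 9 w, against 5.27% and 5.44%, and these counts rest on 1 sample each. At 4 w in B6 mice 1 gene, Tlr7, was called lower, against 9.62% of all probes. Slides allowed a check within batches for DBA/2 mice, since the samples of a replicate at 0 w, 2 w, 4 w and 8 w shared 1 slide. On the 2 slides the mean change was 1.54 and 1.62 for Tlr2, 1.96 and 2.23 for Tlr4, 1.37 and 1.16 for Tlr6, 0.95 and 0.87 for Tlr7, and 2.26 and 2.16 for Cd14, with Tlr4 again not well above background on either 0 w array. For B6 mice 1 slide held 0 w, 4 w and 8 w, and gave 1.00 for Tlr2, 1.32 for Tlr4, 1.88 for Tlr6, 0.04 for Tlr7 and 1.82 for Cd14, although Tlr4, Tlr6 and Cd14 were not well above background on its 0 w array.

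The change in DBA/2 mice was larger than in B6 mice for 4 of the 8 genes tested. Of all probes, 6.48% were called higher and 6.7% lower. The strain difference of the log2 change was 1.11 ± 0.17 for Tlr4 (SE; adjusted p = 0.00249, limma), 0.95 ± 0.10 for Tlr7 (adjusted p = 0.000439), 0.89 ± 0.17 for Cd14 (adjusted p = 0.0082) and 0.66 ± 0.08 for Tlr2 (adjusted p = 0.000767). For Tlr6 it was 0.00 ± 0.17, with a 95% interval from -0.37 to 0.38, which joins 0.61 ± 0.19 for 4 w alone (adjusted p = 0.0764) and -0.60 ± 0.19 for 8 w alone (adjusted p = 0.062). The Tlr4 value rests on fitted signals at 0 w in both strains and at 4 w in B6 mice that were not well above background. With the B6 samples of each week averaged to 1, the Tlr4 difference was no longer called (adjusted p = 0.0512), with slide as a block the Cd14 difference was 0.69 (adjusted p = 0.11), and with 8 w alone the Tlr2 difference was 0.14 (adjusted p = 0.38). Under normexp none of the 4 was called. In the deposited values without scaling, where the median difference over all probes was -0.64, the difference was 0.01 for Tlr2, 0.35 for Tlr7 and 0.28 for Cd14, and none of these was called.

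The hepatocyte markers fell together with these B6 comparisons, all 9 being lower in the mean of 4 w and 8 w than at 0 w, and their part in the results was not tested. Both B6 groups that hold those markers were left out by comparing the average of 4 w and 9 w with 2 w instead. In DBA/2 mice, whose samples all had hepatocyte sums of 556.3 or below, this only changed the weeks compared. There, 5 genes were called higher, among them Tlr2 (1.20 ± 0.06 SE) and Tlr7 (0.71 ± 0.07). The B6 side of this comparison rests on a lone sample as its reference and another at 9 w. That 2 w sample stood apart in its platelet markers, which summed to 43270 against 114400 to 160100 in the other B6 samples, with all 5 called lower than at 0 w. In B6 mice Tlr2 was called higher (0.35 ± 0.08) and Tlr7 lower (-0.47 ± 0.10), and no other gene was called. The strain difference was then called for Tlr2 (0.85 ± 0.10, adjusted p = 0.000309, limma) and Tlr7 (1.19 ± 0.12, adjusted p = 0.000198). For Tlr4 it was 0.40 ± 0.20 and for Cd14 0.23 ± 0.20, with adjusted p values of 0.245 and 0.539.

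**Figure D4:**
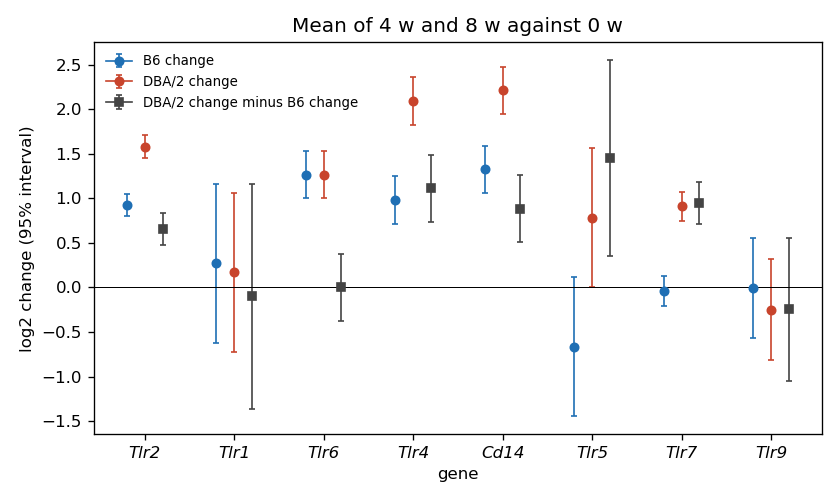
Log2 change of the averaged 4 w and 8 w signals from 0 w in B6 and DBA/2 mice, and the DBA/2 change minus the B6 change. The 8 genes that passed the filter are shown, with 95% intervals from the limma fit. The interval of the strain difference lies above 0 for Tlr2, Tlr4, Cd14, Tlr5 and Tlr7, of which Tlr5 was not called after adjustment (adjusted p = 0.0886), and spans 0 for Tlr6.

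Between strains at the same week, DBA/2 mice had 2 genes higher at 0 w (Tlr6 and Tlr2) and 2 lower (Tlr1 and Tlr5), against 17.2% and 15.5% of all probes. At 4 w they had 5 higher (Tlr2, Tlr4, Tlr6, Tlr7 and Cd14) and 1 lower (Tlr1), against 19% and 13%. Tlr1 is counted here although it was kept through B6 samples alone. At 8 w the same 5 were higher and Tlr1 was lower, against 10.4% and 15%. Among the arrays of 0 w, 4 w and 8 w, no slide held both strains. Strain and slide therefore cannot be told apart here, nor in the levels compared between strains at these weeks above. The log2 difference of Tlr2 was 0.23 ± 0.07 (SE) for 0 w, 1.41 ± 0.07 for 4 w and 0.37 ± 0.07 for 8 w, and the values of Tlr6 in the same order were 1.20 ± 0.14, 1.80 ± 0.14 and 0.60 ± 0.14. Of the 10 neutrophil markers, 8 were also higher in DBA/2 mice at 0 w, 10 at 4 w and 8 at 8 w, and 1 was lower at 0 w and at 8 w. Of the 8 monocyte markers, 2 were higher and 5 lower at 0 w, 8 were higher at 4 w, and 5 were higher and 2 lower at 8 w. The part of these cells in the differences of the receptors was not tested.

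Among the 18 samples, the levels of Tlr2, Tlr6 and Cd14 ran together. Pearson's r of the log2 signals was 0.92 between Tlr2 and Tlr6, 0.91 between Tlr2 and Cd14 and 0.82 between Tlr6 and Cd14, and Tlr7 followed Tlr2 less closely (0.78). For Tlr9 the values were between -0.22 and 0.05. These are descriptions over samples that share strain, week, slide and cell make-up. The genes most like Tlr2 were Pik3r6 (r = 0.976), a regulatory subunit of PI3-kinase gamma, Metrnl (0.971) and App (0.970). Tlr6 was most like Csf2rb2 (0.980), a receptor chain for interleukin 3, Ppt1 (0.978) and Pla2g7 (0.976). Tlr7 was most like Aif1 (0.962) and Plac8 (0.957), Cd14 like the cytokine Il1b (0.954), the fungal sensor Clec4e (0.939) and Sbno2 (0.939), and Tlr9 like Krt17 (0.956), Cdhr5 (0.935) and Cmklr1 (0.935), with the single high DBA/2 sample at 9 w among the points.

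Of 3 adaptors tested, 2 rose in both strains (median log2 change 1.25 in DBA/2 mice and 0.73 in B6 mice). Of all probes, 9.8% were called higher in DBA/2 mice and 7.27% in B6 mice. Myd88, which serves nearly all Toll-like receptors, had scaled signals of 180 and 163 in DBA/2 mice at 0 w, 407 and 370 at 4 w and 662 and 545 at 8 w, and of 182 and 164, 208 and 190, and 524 and 471 in B6 mice. Its log2 change in the mean of 4 w and 8 w was 1.49 ± 0.11 (SE; adjusted p = 1.52e-05, limma) in DBA/2 mice and 0.86 ± 0.11 (adjusted p = 0.000786) in B6 mice, with a called strain difference of 0.63 ± 0.16 (adjusted p = 0.029). Tirap, the bridging adaptor of Tlr2 and Tlr4, rose by 1.25 ± 0.13 and 0.73 ± 0.13, with a difference of 0.52 ± 0.18 that was not called (adjusted p = 0.099). Ticam1, the adaptor of Tlr3 and Tlr4 for interferon, was at 0.02 ± 0.20 in DBA/2 mice and -0.35 ± 0.20 in B6 mice and was not called. Ticam2 and Sarm1 were never well above background.

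Of 8 accessory proteins, 2 rose and 1 fell in DBA/2 mice (median log2 change 0.13), and 1 rose in B6 mice (median -0.04). Over all probes, 9.8% were called higher and 13% lower in DBA/2 mice, and 7.27% and 7.71% in B6 mice. Ly96, which carries the lipopolysaccharide site of the Tlr4 complex, had scaled signals of 26.4 and 24.6 in DBA/2 mice at 0 w, 60.1 and 53.3 at 4 w and 61.2 and 56.3 at 8 w, and of 33.0 and 33.2, 29.8 and 24.5, and 51.4 and 48.9 in B6 mice. It rose by 1.18 ± 0.12 (adjusted p = 9.94e-05, limma) in DBA/2 mice and was at 0.15 ± 0.12 (adjusted p = 0.459) in B6 mice. The strain difference was 1.02 ± 0.16 (adjusted p = 0.00348, limma). In B6 mice Ly96 rose at 8 w (0.60), and the single samples at 2 w and 9 w had signals like those of 8 w, 50.9 and 48.9. Lbp, the serum protein that loads Cd14 and is made chiefly by the liver, rose by 2.17 ± 0.30 in DBA/2 mice from 0 w signals of 5.02 and 3.64 that were not well above background, and in B6 mice it was above background in single samples at 0 w and 8 w and in none at the other weeks. Cd180, a B cell relative of Tlr4, fell by 0.92 ± 0.24 in DBA/2 mice (adjusted p = 0.0221), where 6 of 8 B cell markers fell as well. Cd36, a scavenger receptor that assists Tlr2 with Tlr6, had a called mean change of 0.40 ± 0.09 in B6 mice, which joins a rise of 1.11 ± 0.11 at 4 w and a value of -0.31 ± 0.11 at 8 w that was not called (adjusted p = 0.0705). Its rises in DBA/2 mice were called at 2 w, 8 w and 9 w. Ly86, Unc93b1, Cnpy3 and Hsp90b1 had no called change of this mean in either strain, with log2 values from -0.43 to 0.20.

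**Figure D5:**
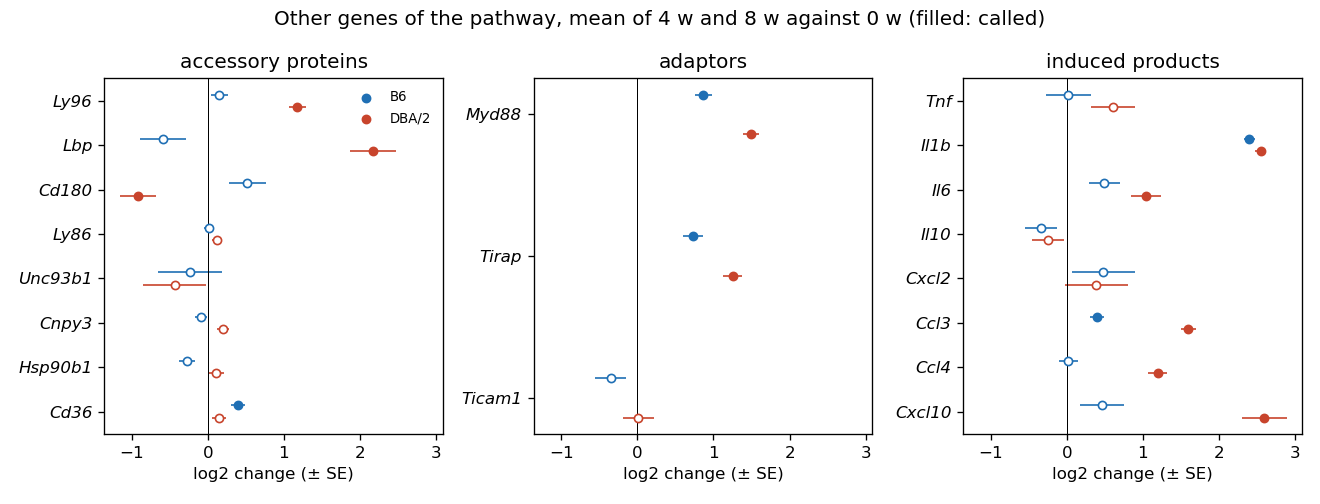
Log2 change (± SE) of the averaged 4 w and 8 w signals from 0 w for accessory proteins, adaptors and induced products in B6 and DBA/2 mice, with filled points for called changes. Ly96, Myd88, Tirap, Ccl3, Ccl4 and Cxcl10 lie further to the right in DBA/2 mice, and Il1b lies near 2.5 in both strains.

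Of 12 kinases and ligases tested, 2 fell in DBA/2 mice (median log2 change -0.13), and 2 fell and 1 rose in B6 mice (median -0.21), and none was called for a strain difference. These shares, like those of the inhibitors, can be read against the 9.8% of all probes called higher and 13% lower in DBA/2 mice and 7.27% and 7.71% in B6 mice. Tab1, an activator of the kinase Map3k7, fell by 0.61 ± 0.10 (SE) in DBA/2 mice and 0.39 ± 0.10 in B6 mice, and Irak1, the kinase downstream of Myd88, fell by 0.28 ± 0.07 in both. Of 9 inhibitors, 3 rose and 1 fell in DBA/2 mice (median 0.12) and 1 rose and 3 fell in B6 mice (median -0.11). Socs3, an inhibitor of cytokine signalling, rose by 1.77 ± 0.06 and 1.89 ± 0.06. Socs1, its relative, rose by 0.34 ± 0.07 in DBA/2 mice and fell by 0.35 ± 0.07 in B6 mice. Sigirr, a receptor among these inhibitors, fell by 0.62 ± 0.07 in DBA/2 mice.

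Of 7 transcription factors tested, 2 rose and 1 fell in DBA/2 mice (median log2 change 0.15) and 1 fell in B6 mice (median -0.20). For these factors and the induced products below, the shares over all probes were 9.8% called higher and 13% lower in DBA/2 mice. In B6 mice the shares were 7.27% and 7.71%. Irf7, which drives interferon genes downstream of Tlr7 and Tlr9, rose by 1.77 ± 0.08 (SE) in DBA/2 mice and fell by 0.63 ± 0.08 in B6 mice, a strain difference of 2.40 ± 0.12 (adjusted p = 4.33e-06, limma). Of 8 induced products tested, 5 rose in DBA/2 mice (median 1.12) and 2 in B6 mice (median 0.43), and none fell. The change differed between the strains for 3 of them, against 6.48% of all probes called higher and 6.7% lower. Il1b rose by 2.55 ± 0.07 and 2.40 ± 0.07, a difference of 0.15 ± 0.10 that was not called (adjusted p = 0.438). The mean change of the chemokine Ccl3 was 1.59 ± 0.10 and 0.40 ± 0.10, both called, and Ccl4 and Il6 rose by 1.19 ± 0.12 and 1.04 ± 0.20 in DBA/2 mice and were at 0.02 ± 0.12 and 0.49 ± 0.20 in B6 mice. The B6 means of these chemokines join opposite weeks, with called changes of 1.31 at 4 w and -0.52 at 8 w for Ccl3 and of 0.58 and -0.54 for Ccl4. In B6 mice Il6 rose at 4 w (1.04). Cxcl10, an interferon-induced chemokine, rose by 2.59 ± 0.29 in DBA/2 mice and was at 0.46 ± 0.29 in B6 mice. Il12b, Ifnb1, Nos2 and Ptgs2 were never well above background.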

How the data were processed

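Leukocyte RNA of B6 and DBA/2 mice was hybridised to single-colour whole mouse genome arrays. The authors scanned the arrays and extracted signals with Agilent Feature Extraction 9.5.3.1, per the submitters' processing notes and the file headers. The deposited processed signal of each spot is an intensity after background subtraction. A deposited value table holds the same signals, averaged over the spots of a probe, without scaling between arrays.

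From the intensities, spots of a probe were averaged without outlier spots, and log2 signals were centred on each array's 75th percentile, taken over 11533 probes that every one of the 19 arrays measured well above background. The 2 arrays of B6 0 w replicate 2 were averaged. A probe was kept if 2 or more of the 18 samples measured it well above background, which left 22937 of 41174. A model of 10 group means was fitted with limma 3.58.1 in R 4.3.3 (8 residual degrees of freedom), with Benjamini-Hochberg adjustment over all probes kept. Where a gene had several probes, that with the highest mean signal was used. The script was tested on simulated data.

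Between 33.9% and 51.4% of spots per array were well above background, and the number of arrays limits the precision. Groups were taken from the sample titles. The titles mark 2 arrays of B6 0 w replicate 2 as technical, while another label puts the words technical replicate on the second of these and on DBA/2 2 w replicate 2. The titles were followed. The members and gene lists were chosen with earlier results of these data known. All members were named. Of the pathway lists, all accessory proteins and adaptors were named, and of each other list up to 4 genes called in the most comparisons. The 3 most similar genes were named for members well above background in at least 15 samples, and 1 of these is not reported here. Alternatives covered background correction, normalization, filters, slide and replicate blocks, weeks and single samples. Slide as a block, other weeks and the averaging of B6 samples were added after seeing the data.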

Additional observations from a re-analysis of the deposited data

Results flagged for a closer look

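The change of the mean of 4 w and 8 w from 0 w differed between DBA/2 and B6 mice, by the interaction term of the limma fit, for 4 genes. The difference was 0.66 for Tlr2 (adjusted p = 0.000767), 1.11 for Tlr4 (adjusted p = 0.00249), 0.95 for Tlr7 (adjusted p = 0.000439) and 0.89 for Cd14 (adjusted p = 0.0082) on the log2 scale, each larger in DBA/2 mice. The Tlr4 value is fitted to signals that were not well above background at 0 w in both strains and at 4 w in B6 mice. The Tlr4 call was lost with the B6 samples of each week averaged, and the Cd14 call with slide as a block (adjusted p = 0.11). The Tlr2 call was lost with 8 w alone (adjusted p = 0.38), and all 4 calls under normexp. With 4 w and 9 w averaged and compared with 2 w, the Tlr4 (0.40) and Cd14 (0.23) calls were lost. Without scaling, the Tlr2, Tlr7 and Cd14 calls were lost.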

How the results depend on the processing

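Of 451 values of genes called as reported, 427 kept direction and call under the alternatives, 23 kept the direction and lost the call, and 1 changed sign. The alternatives include fits without a sample outside the comparison. These cannot move the change itself, so part of this agreement was fixed in advance. Of 378 values not called, 7 kept the direction and became called, and 44 changed sign. Among those that changed sign, Tlr7 in B6 mice (0.49) and the Tlr6 difference (-0.60) were called without scaling. With slide as a block, Tlr5 (0.78, adjusted p = 0.0378) and Tlr9 (-0.25, adjusted p = 0.0279) became called in DBA/2 mice, as did the Tlr5 difference (1.56, adjusted p = 0.0258). A floor of 10 made Tlr1 in B6 mice called (0.27, adjusted p = 0.0134). The cause of these changes was not tested. The genes called numbered 5 in DBA/2 mice, 4 in B6 mice and 4 for the strain difference. Under normexp these numbers were 2, 0 and 0, without scaling the strain difference had 2, and with 4 w and 9 w averaged and compared with 2 w B6 mice and the strain difference had 2 each. All other alternatives left them within a factor of 1.5. These numbers join calls in either direction. With 4 w alone in B6 mice, Tlr4 and Tlr6 lost their calls and Tlr7 became called as lower (-0.34). Each sample was also left out in turn, apart from the single B6 samples at 2 w and 9 w. The fitted strain difference then ran from 0.62 to 0.69 for Tlr2 and from 0.95 to 1.27 for Tlr4. It ran from 0.91 to 0.99 for Tlr7 and from 0.65 to 1.12 for Cd14. Where an arm was left with 1 sample, that sample is assumed to vary like the others.

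With the replicate number as a block, the counts were 5, 4 and 4. Same-numbered samples shared a scan day, their deviations correlated at -0.03 to 0.83 (22 of 28 over 0.1), and the block changed no call.

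The called value that changed sign was that of Tlr4 in B6 mice under normexp (-0.16). For uncalled values, normexp gave Tlr1 -0.0568 in DBA/2 mice, -0.0599 in B6 mice and 0.0031 for the strain difference, and Tlr9 0.0695 in B6 mice. Quantile normalization gave 0.0165 for Tlr7 in B6 mice and 0.20 for the Tlr1 difference. The 75th percentile over all probes gave 0.0383 for Tlr7 and 0.0712 for Tlr9 in B6 mice, and the array median gave 0.027 for Tlr9. Without scaling, B6 mice had 0.49 for Tlr7 (adjusted p = 0.00253) and 0.52 for Tlr9, and the Tlr6 difference was -0.60 (adjusted p = 0.0413). With a floor of 10, Tlr1 in DBA/2 mice was 0.00. The first array alone of B6 0 w replicate 2 gave 0.0592 for Tlr9 in B6 mice, and the second alone -0.20 for the Tlr6 difference. With slide as a block, Tlr7 was 0.012 and Tlr9 0.0259 in B6 mice, and the Tlr6 difference -0.29.

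With 4 w alone, Tlr1 was -0.0715 and Tlr9 0.18 in B6 mice, and the Tlr1 difference 0.21. With 8 w alone, Tlr7 was 0.26 in B6 mice and the Tlr6 difference -0.60. With 4 w and 9 w averaged and compared with 2 w, Tlr5 was -0.29 and Tlr9 0.26 in DBA/2 mice, Tlr1 -0.49 and Tlr5 0.10 in B6 mice, and the differences were 1.36 for Tlr1, -0.38 for Tlr5 and 0.36 for Tlr9. Leaving out single samples, Tlr1 ran from -0.17 to 0.51 in DBA/2 mice, Tlr7 from -0.0806 to 0.0013 and Tlr9 from -0.14 to 0.12 in B6 mice, and the differences from -0.44 to 0.24 for Tlr1 and from -0.19 to 0.19 for Tlr6. Without DBA/2 0 w replicate 2 the Tlr5 difference was called (1.95, adjusted p = 0.0473).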

Other observations

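Other leukocyte markers differed between the strains in the same comparison of the mean of 4 w and 8 w with 0 w. Of 6 NK cell markers, 4 rose in DBA/2 mice (median log2 change 0.42) and 5 fell in B6 mice (median -0.67), and 5 had a larger change in DBA/2 mice. Of 7 tissue macrophage markers tested, 3 rose in DBA/2 mice (median 1.19) and 5 fell in B6 mice (median -1.73). Of 7 T cell markers, 4 fell in each strain (median -0.29 and -0.30), and 1 differed in its change between them. The B6 samples at 0 w that enter these changes also held the hepatocyte markers, and the part of other tissue in them was not tested.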
